A study of Mus musculus with 3 samples.

Results

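Fibroblasts high in Ccl2, Ccl7 and Tnfaip6 were chosen from single-cell libraries of mouse abdominal skin dermis by these transcripts. Barcodes had to show 200 or more genes, with mitochondrial genes giving no more than 10% of their unique molecular identifiers (UMIs, counts of captured RNA molecules). A barcode was called a fibroblast when Col1a1, Col1a2, Col3a1, Dcn and Lum together made up at least 1% of its UMIs. It was called chemokine-high, a short name, when Ccl2, Ccl7 and Tnfaip6, the last not a chemokine gene, together reached 0.5%. These limits left 319 chemokine-high cells among 1367 fibroblasts and 6022 kept cells, and the other 1048 fibroblasts, below 0.5%, served as the comparison.

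The mice were C57BL/6, 8 to 12 weeks old by their labels, and all carried the Col1a2creERT2 driver with the R26H2B EGFP reporter, so the controls had the same alleles and also received tamoxifen. The control group was non-pregnant (NP), given tamoxifen for 3 days and taken 48 days later. The others received tamoxifen in pregnancy and were taken on gestation day 16 (dpc16) or on day 42 after birth (dpp42). Each group is 1 library, with the number of mice behind it not given in the sources used here. Mouse, pregnancy stage and library therefore cannot be told apart, no test between groups was possible, and every interval below covers counting error only. A gene is called higher or lower where the ratio of 2 summed levels is at least 1.5 either way and its 95% interval excludes 1. Because the cells were picked on 3 of their own genes, all differences from other fibroblasts are descriptions.

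Fibroblasts exposed to injury or inflammatory signals can turn on a secretory program controlled largely by NF-kB, a transcription factor held in the cytoplasm by IkB proteins. Its products include CC chemokines that draw monocytes through the receptor CCR2, CXC chemokines that draw neutrophils, and interleukin 6, which signals through STAT3. Tnfaip6 encodes TSG-6, a hyaluronan-binding protein that links hyaluronan chains to other matrix proteins.

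The 3 genes that picked the cells lie on mouse chromosomes 11 and 2 (GRCm38). Ccl2, the monocyte chemoattractant MCP-1, is at chr11:82035571-82037453, and Ccl7, the related ligand MCP-3, is its neighbour at chr11:82045712-82047525. Tnfaip6 is at chr2:52038009-52056686. RefSeq promoters (GRCm38.p6) are shown for Tnfaip6 and for the genes ranked highest in the chemokine-high cells, Cxcl1 and Il6, as the 250 bases before the RefSeq start site on the plus strand, counted back from -1. The RefSeq starts of Tnfaip6 and Cxcl1 lie inside the gene bounds given here from the GRCm38 gene annotation, so the ends of these windows overlap those bounds. Capitals mark matches to the NF-kB consensus or to the AP-1 motif TGANTCA, both searched on both strands.
Il6, chr5:30012864-30013113: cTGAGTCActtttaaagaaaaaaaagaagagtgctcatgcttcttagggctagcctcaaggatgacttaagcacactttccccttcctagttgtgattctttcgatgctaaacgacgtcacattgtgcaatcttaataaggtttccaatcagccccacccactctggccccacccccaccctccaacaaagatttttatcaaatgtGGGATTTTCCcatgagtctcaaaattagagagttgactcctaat
Cxcl1, chr5:90890995-90891244: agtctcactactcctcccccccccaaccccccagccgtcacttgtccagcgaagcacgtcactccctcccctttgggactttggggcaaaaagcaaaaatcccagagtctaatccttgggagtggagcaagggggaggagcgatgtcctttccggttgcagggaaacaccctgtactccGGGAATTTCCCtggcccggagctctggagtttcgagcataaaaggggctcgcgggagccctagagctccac
Tnfaip6, chr2:52037863-52038112: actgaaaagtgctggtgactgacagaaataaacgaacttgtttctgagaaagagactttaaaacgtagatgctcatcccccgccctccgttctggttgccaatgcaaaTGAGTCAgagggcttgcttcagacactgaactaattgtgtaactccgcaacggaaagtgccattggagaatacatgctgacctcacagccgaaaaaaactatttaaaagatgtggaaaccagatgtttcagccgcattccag
The Il6 window held GGGATTTTCC at -44 and TGAGTCA at -249. The Cxcl1 window held 2 overlapping NF-kB matches at -71 and -70 and no AP-1 match, while the Tnfaip6 window held TGAGTCA at -142 and no NF-kB match. The Has1 and Ccl19 windows held neither set of letters. A match describes the letters of the window and shows no binding. Over all 27018 genes of the table, 4.46% had an NF-kB match and 7.82% an AP-1 match in such windows.

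Depth was similar in the cells compared within a library. In chemokine-high fibroblasts a cell had a median of 2742.5 UMIs in the NP library, 4317 at dpc16 and 2418 at dpp42, against 2484, 4075 and 2419 in other fibroblasts. Summed UMIs of the chemokine-high cells were 155985, 1123648 and 61229, so genes near 10 CPM (UMIs per 1000000 UMIs of the sum) could be read in dpc16 and not in dpp42. Median mitochondrial shares were 3.02%, 2.62% and 3.6% in chemokine-high cells, against 3.80%, 3.40% and 5.22% in other fibroblasts. The libraries shared 13 cell barcodes, none of them in a fibroblast.

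The label was compared with markers that the selection did not use and with other cell types. Has1 and Ccl19 were detected in the chemokine-high cells of all 3 libraries, while the detection of Ccl2, Ccl7 and Tnfaip6 follows from the selection. Has1 was also detected in 31.9%, 16.9% and 12.9% of other fibroblasts of NP, dpc16 and dpp42. For Ccl19 these shares were 25.5%, 23.0% and 25.9%. Both genes were detected in a larger share of chemokine-high cells in each library. The marker lists were chosen with earlier results of these data known, so Has1 and Ccl19 are no independent check of the label. The 8 pan-fibroblast markers outside the collagen gate, Pdgfra, Pdgfrb and Thy1 among them, summed to 2917, 3219 and 2891 CPM in chemokine-high cells of NP, dpc16 and dpp42, against 3218, 3374 and 3611 CPM in other fibroblasts. Macrophages also make Ccl2 and Ccl7. Their 12 markers summed to 44.9, 81.9 and 32.7 CPM in chemokine-high cells, and C1qa, C1qb, C1qc, Pf4, Cd68 and Lyz2 were at 0 in NP and dpp42. Mast cell and neutrophil markers were at 0 in NP and dpp42 and at most 4.45 CPM in dpc16. The 8 keratinocyte markers summed to 2013, 1877 and 1062 CPM, against 3726, 2809 and 3776 CPM in other fibroblasts and 24119, 17171 and 18776 CPM in cells below the collagen gate.

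Chemokine-high cells made up 53.5% of fibroblasts in NP (54 of 101, exact 95% interval 43.3 to 63.5%), 20.8% in dpc16 (240 of 1156, 18.5 to 23.2%) and 22.7% in dpp42 (25 of 110, 15.3 to 31.7%). The dpc16 share was 2.58 times lower than the NP share (2.08 to 3.19) and the dpp42 share 2.35 times lower (1.59 to 3.47). The dpp42 and dpc16 shares had a ratio of 1.09 (0.762 to 1.57). Of all kept cells, chemokine-high fibroblasts were 4.19%, 6.57% and 2.31% in NP, dpc16 and dpp42, an order that also carries the different fibroblast yield of each library. The dpc16 share moved with the limit, to 29.8% at 0.25% of UMIs and to 12.5% at 1%, and stayed below the NP share at both.

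The summed level of the 3 genes was spread without a clear break at the limit in dpc16. Over all fibroblasts its median was 0.663% of UMIs (NP), 0.0566% (dpc16) and 0.0372% (dpp42), while the highest cells reached 6.46%, 9.16% and 6.42%. None of the 3 transcripts was seen in 15.8%, 25.5% and 45.5% of fibroblasts. Just outside the limit, between 0.4% and 0.5%, lay 0, 35 and 1 cells, and just inside, between 0.5% and 0.6%, lay 0, 21 and 2 cells.

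**Figure D1:**
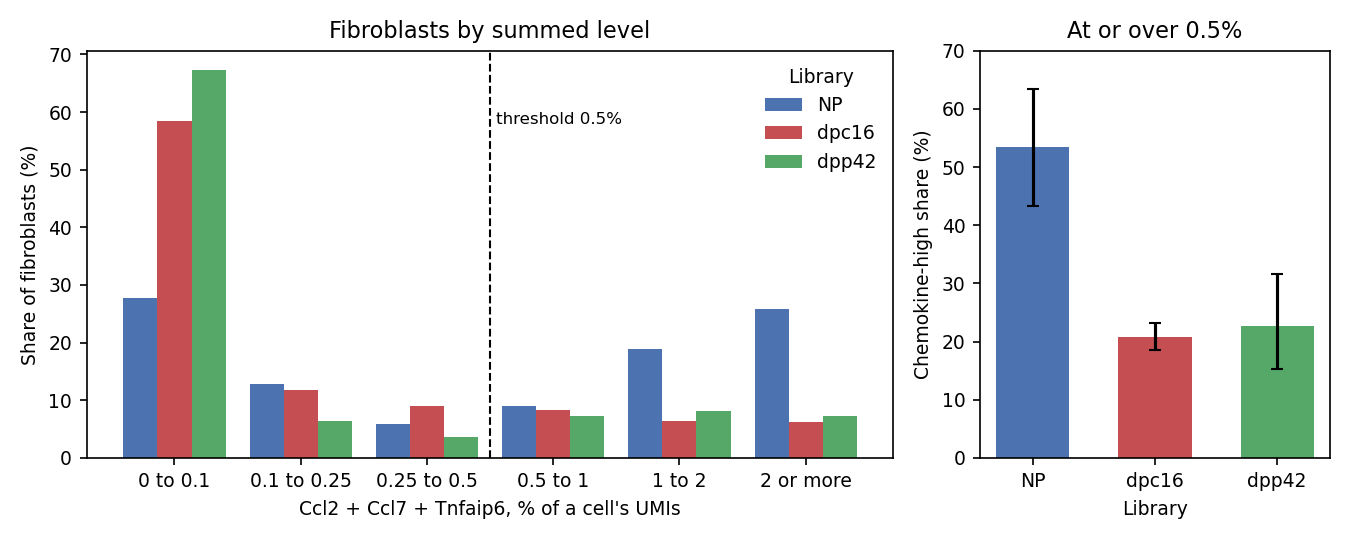
Left, share of fibroblasts (%) in 6 bins of the summed Ccl2, Ccl7 and Tnfaip6 level (% of a cell's UMIs) in the NP, dpc16 and dpp42 libraries, with the 0.5% limit dashed. Right, share of fibroblasts at or over the limit with exact 95% binomial intervals: NP stands at 53.5%, dpc16 at 20.8% and dpp42 at 22.7%.

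The 3 genes contributed differently in each library. Ccl2 stood at 8315, 7889 and 3332 CPM in chemokine-high cells of NP, dpc16 and dpp42, against 229.9, 170.5 and 22.3 CPM in other fibroblasts. Ccl7 stood at 8315, 7099 and 8770.4 CPM, against 182, 312 and 107 CPM. Tnfaip6 stood at 6109.6, 2691 and 6892 CPM, against 602, 330.0 and 321 CPM. These levels follow from the selection. Within the sum, Ccl2 supplied 36.6%, 44.6% and 17.5% of UMIs in the 3 libraries in that order, and Tnfaip6 supplied 26.9%, 15.2% and 36.3%. All 3 transcripts were present together in 74.1%, 78.8% and 44.0% of the cells. Tnfaip6, not a chemokine gene, gave the most UMIs of the 3 in 16 of 54, 27 of 240 and 13 of 25 cells. Ccl2 was detected in 46, 213 and 13 of these cells. In dpp42, 1 cell held 35.3% of the Ccl2 UMIs.

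Beyond the selecting genes, Il6, Cxcl1, the NF-kB inhibitors Nfkbia and Tnfaip3, the hyaluronan genes Has1 and Ugdh, and the metallothioneins Mt1 and Mt2 were called higher in chemokine-high than in other fibroblasts of all 3 libraries. Of the chemokines measured in all libraries, 1 of 3 CC and 1 of 3 CXC chemokines were called higher in each. Per library, 2 of 5 CXC chemokines were called higher in NP (10.2% of all measured genes there), 5 of 8 in dpc16 (5.96%) and 1 of 3 in dpp42 (8.91%), and none lower. For CC chemokines the counts were 1 of 3, 2 of 4 and 1 of 4 in that order, with 1 called lower in NP and 1 in dpp42. Of 1679 genes measured in all 3 libraries, 71 were called higher in each (4.23%) and 27 lower in each (1.61%). The highest ranked were Cxcl1, Il6, Mt2, Vcam1, Stx11, Gbp2, Gfpt2, Mt1, Tnfaip2, Nfkb1, Il17ra, Csf1, Tnfaip3, Ifi205 and Has1. Of these 15, 14 were called higher in all 3 libraries, and Stx11 had too few UMIs in NP to be called. Of the 55 genes called higher that had a RefSeq promoter, 12 (21.8%) held an NF-kB match and 9 (16.4%) an AP-1 match. Of the 21 genes called lower that had one, 1 (4.76%) held an NF-kB match and 4 (19.0%) an AP-1 match. The shares over all 27018 genes given above include genes not measured here. Shares among the 1679 measured genes were not computed, so whether matches are more frequent than among these was not tested.

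**Figure D2:**
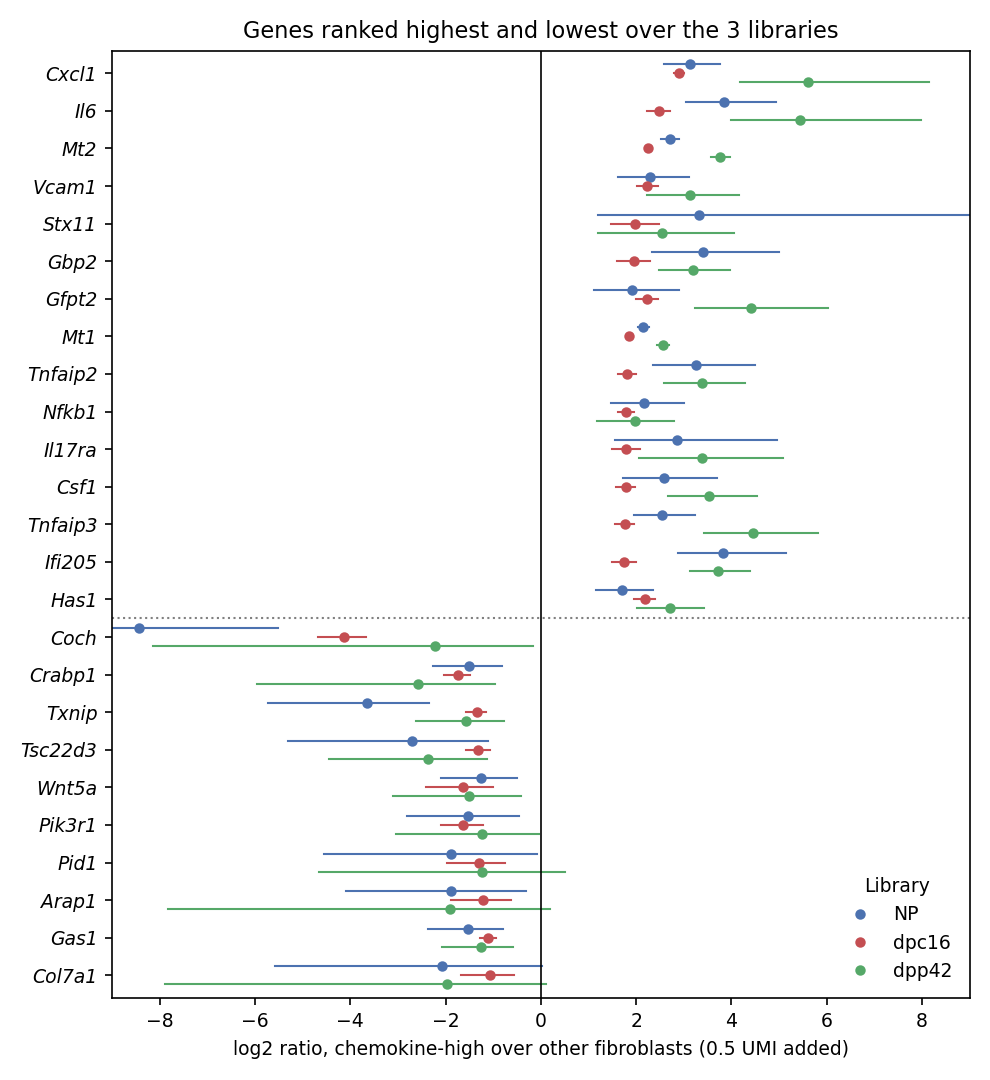
The log2 ratio of summed levels in chemokine-high over other fibroblasts (0.5 UMI added to each sum) for the 15 highest and 10 lowest ranked genes, 1 point per library with the exact 95% interval of the ratio as a line, cut at the edge of the plot where it runs further. The points of the 15 upper genes lie at or above 1.71 and those of the 10 lower genes at or below -1.08.

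Among secreted ligands, Cxcl1 and Il6 showed the largest differences by this ranking. Il6 encodes interleukin 6 and lies at chr5:30013114-30019981. It stood at 1314, 319 and 670 CPM in chemokine-high cells of NP, dpc16 and dpp42, against 87.2, 57.5 and 13.4 CPM in other fibroblasts. The ratios were 15.1 (8.25 to 30.7), 5.54 (4.69 to 6.56) and 50.1 (16 to 253). In dpp42, 41.5% of the Il6 UMIs of the chemokine-high cells came from 1 cell. Cxcl1 encodes the neutrophil-attracting ligand KC and lies at chr5:90891241-90893115. It stood at 1975, 1937 and 751 CPM in chemokine-high cells, against 222, 259 and 13.4 CPM, with ratios of 8.90 (6.03 to 13.6), 7.47 (6.94 to 8.05) and 56.2 (18.1 to 283). Both genes were above their level in other fibroblasts in each library, and the dpp42 ratios rest on 3 UMIs in the other fibroblasts.

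The share of cells with a transcript showed the same order. After each cell was thinned to 1000 UMIs, which left out no cell, Il6 was detected in 48.1%, 15.4% and 28.0% of chemokine-high cells of NP, dpc16 and dpp42, against 8.51%, 3.71% and 3.53% of other fibroblasts. Kept cells below the collagen gate, mostly of other types and with median depths of 3189, 4459.5 and 3474 UMIs, had an Il6 UMI in 3.62%, 4.01% and 5.77%. The Il6 share of other dpc16 and dpp42 fibroblasts was thus no higher than that of the cells below the gate. Those cells are not a blank, and the source of their Il6 UMIs was not tested. Unthinned, the Il6 shares in chemokine-high cells were 57.4%, 35.8% and 40.0%.

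Other ligands were higher as well. Csf1, the growth factor of macrophages, stood at 545, 358 and 735 CPM in chemokine-high cells of NP, dpc16 and dpp42, against 87.2, 104 and 62.3 CPM in other fibroblasts. Ccl19, a ligand of CCR7 made by lymphoid-tissue stroma, stood at 391, 189 and 1339 CPM, against 119, 86.9 and 160 CPM, with ratios of 3.29 (1.85 to 6.23), 2.17 (1.82 to 2.58) and 8.35 (5.58 to 12.7). After thinning, 24.1%, 14.6% and 64.0% of chemokine-high cells had a Ccl19 UMI, against 10.6%, 7.64% and 10.6% of other fibroblasts and at most 0.206% of cells below the gate. The symbol Ccl19 has 2 rows in the count tables, and the values are those of the chromosome 4 gene.

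Ccl11, an eosinophil-attracting CC chemokine, was called higher in dpc16 alone, at 549 CPM in chemokine-high cells against 263 CPM in other fibroblasts. Ccl27a was called lower in NP and dpp42, at 218 and 179.7 CPM against 912 and 699 CPM. Of the CXC chemokines, Cxcl2 was called in NP and dpc16, at 141 and 254.5 CPM in chemokine-high cells against 0 and 22.2 CPM in other fibroblasts, and had no UMI in dpp42 chemokine-high cells. Cxcl10 was called in dpc16 alone, at 213 against 68.4 CPM. Cxcl12, a homeostatic ligand, stood at 147, 209 and 179.7 CPM against 143, 141 and 102 CPM and was not called in any library.

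The list of NF-kB targets and regulators held 20 genes. Of the 11 measured in all 3 libraries, 9 were called higher in each and none lower, against 4.23% and 1.61% of all measured genes. These 9 were Vcam1, Tnfaip2, Nfkb1, Tnfaip3, Icam1, Nfkbia, Nfkbiz, Birc3 and Sod2. Per library, 11 of 13 were called higher in NP (10.2% of all measured genes there), 19 of 19 in dpc16 (5.96%) and 11 of 11 in dpp42 (8.91%). Centred on the median of all genes, the calls in dpc16 moved to 759 higher and 585 lower, from 450 and 1210, and in dpp42 to 248 and 153, from 185 and 245, while the NF-kB counts over all 3 libraries stayed at 9 of 11. The median log2 ratio of the list was 1.73, 1.51 and 2.73, against -0.04, -0.23 and -0.19 for all measured genes. Nfkbia encodes the IkB alpha inhibitor and stood at 2584, 2212 and 2009 CPM in chemokine-high cells, against 1260.3, 807 and 378.5 CPM in other fibroblasts. Tnfaip3 encodes A20, an enzyme that ends NF-kB signalling, and stood at 1173, 349 and 817 CPM, against 198, 103 and 35.6 CPM. The adhesion molecules followed, with Icam1 at 801, 631 and 1225 CPM against 246, 167 and 80.2 CPM, and Vcam1 at 750.1, 339 and 555 CPM against 151, 71.8 and 62.3 CPM. Rel and Gadd45b were called higher in dpc16 and dpp42 and missed the limits in NP.

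Receptors and downstream factors of the same pathways were higher as well. Il17ra, the shared subunit of interleukin 17 receptors, stood at 256, 173.5 and 294 CPM in chemokine-high cells, against 31.7, 50.4 and 26.7 CPM. Il1r1, the interleukin 1 receptor, stood at 263, 73.0 and 212 CPM, against 55.5, 40.2 and 71.3 CPM. Osmr, the oncostatin M receptor, stood at 237, 136 and 310.3 CPM, against 23.8, 53.1 and 57.9 CPM. These 3 were the receptors called higher in all libraries of the 5 measured in all, and Il6st, the signalling subunit for interleukin 6, and Ifngr1 were called in none. In the STAT3 and C/EBP list 4 of 6 were called higher, Stat3, Cebpb, Pim1 and Osmr, of which Osmr is also 1 of the 3 receptors. Over all measured genes, 4.23% were called higher in all 3 libraries. Cebpd of this list was absent from the count data. The feedback gene Socs3 stood at 76.9, 162 and 212 CPM against 143, 109.8 and 129 CPM and was not called.

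The hyaluronan genes form a route from sugar precursor to coat. Gfpt2 and Uap1 act in the making of UDP-N-acetylglucosamine, Ugdh makes UDP-glucuronate, Has1 joins both into hyaluronan, and Cd44 is a hyaluronan receptor. Of the 4 genes of the hyaluronan list measured in all 3 libraries, Has1, Cd44 and Ugdh were called higher in each. Over all measured genes, the share called higher in each was 4.23%. Has1, at chr17:17843323-17855205, stood at 814, 339 and 817 CPM in chemokine-high cells, against 246, 75 and 125 CPM, with ratios of 3.31 (2.22 to 5.08), 4.52 (3.88 to 5.27) and 6.55 (4.04 to 10.8). Ugdh stood at 718, 416.5 and 588 CPM, against 206, 132 and 143 CPM. Gfpt2 stood at 429.5, 319.5 and 604 CPM, against 111, 68.2 and 26.7 CPM. Uap1, chosen for mention after its values were seen, stood at 378, 269.7 and 523 CPM, against 159, 120.3 and 75.7 CPM. Vcan, a proteoglycan that binds hyaluronan, was not called in any library. Ptx3, which joins TSG-6 and hyaluronan in the matrix, was called in dpc16, at 250.1 against 24.6 CPM, and in dpp42 had 229 CPM against 0 CPM, too few UMIs to call.

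Metallothioneins, which bind zinc and copper, were called higher in all 3 libraries. Mt2 stood at 12617, 3632 and 15205 CPM in chemokine-high cells, against 1934, 765 and 1113 CPM in other fibroblasts. Mt1 stood at 22932, 5699 and 22947 CPM, against 5168, 1579.8 and 3869.8 CPM. Hmox1, the haem-degrading enzyme, was called in NP and dpc16, at 526 and 634 CPM against 47.6 and 140.5 CPM. In the interferon list, Gbp2 and Irf1 were called higher in all libraries, 2 of 7 measured in all (4.23% of all measured genes). Gbp2, a guanylate-binding protein induced by interferon gamma, stood at 545, 128 and 947 CPM, against 47.6, 33.1 and 102 CPM. The class I genes B2m, H2-K1 and H2-D1 were not called in any library. Ifi205 was called in all 3, but it belongs to a family of near-identical neighbours in which Ifi204 and Mnda were called too, so reads could be split among them.

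**Figure D3:**
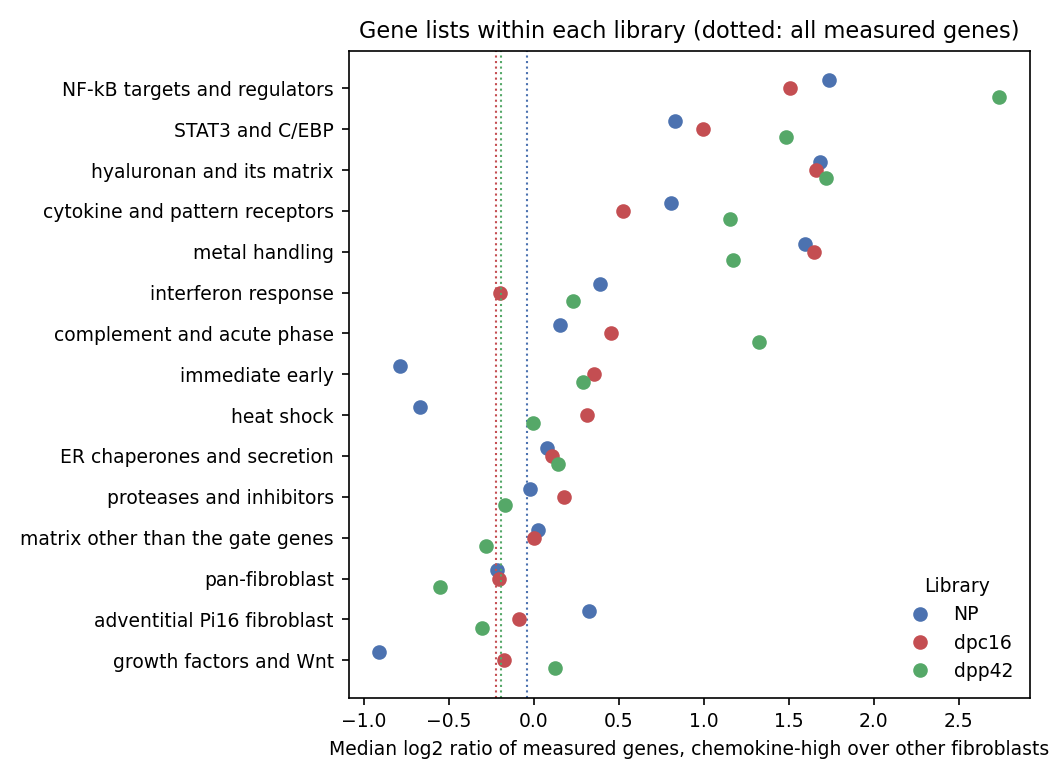
Median log2 ratio of the measured genes of 15 gene lists, chemokine-high over other fibroblasts, 1 point per library, with the median over all measured genes dotted. The NF-kB list sits at 1.73, 1.51 and 2.73 in NP, dpc16 and dpp42, while immediate early and heat shock genes lie below 0 in NP and not in dpc16.

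Of 20 matrix genes outside the gate measured in all libraries, 1 was called higher in each, a share near the 4.23% of all measured genes. It was Thbs1, thrombospondin 1, at 1532, 305 and 539 CPM in chemokine-high cells against 483.5, 148 and 209 CPM. In dpp42, 8 of the 20 were called lower, where 11.8% of all measured genes were, among them Sparc (3805 against 6555 CPM), Postn (131 against 574.5 CPM) and Col6a3 (294 against 739 CPM). Sparc had ratios of 0.939 in NP and 1.01 in dpc16 and was called in neither. Timp3, an inhibitor of matrix metalloproteinases, was called higher in NP alone, at 1128 CPM against 507 CPM. Complement genes were called in no more than 2 libraries each: C3 stood at 237, 315 and 898 CPM against 262, 193 and 165 CPM.

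Fewer genes were called lower than higher in all 3 libraries at once, 27 against 71, although single libraries held more lower calls than higher ones in dpc16 and dpp42, an order that centring turned round. Coch, which encodes the matrix protein cochlin, had 0, 35 and 1 UMIs in chemokine-high cells (0, 31.1 and 16.3 CPM), against 1102, 554 and 111 CPM in other fibroblasts, with a dpc16 level 17.8 times lower (12.7 to 25.6). Crabp1, a retinoic acid-binding protein, stood at 160.3, 111 and 32.7 CPM against 459.7, 374 and 240.5 CPM. Wnt5a, a secreted Wnt ligand, stood at 141, 17.8 and 98.0 CPM against 341, 56.5 and 298 CPM. Tsc22d3, the glucocorticoid-induced GILZ gene, stood at 19.2, 127 and 65.3 CPM against 143, 317 and 379 CPM. Igfbp2 stood at 391, 448 and 588 CPM against 1324, 695 and 3135 CPM. Txnip, Gas1 and Pik3r1 were also called lower in each library, while Pid1, Arap1 and Col7a1 were called in dpc16 alone, with ratios below 1 in NP and dpp42 too. Genes of the cornified epidermis, Lgals7, Sbsn, Krtdap and Krt77, named after their values were seen, were among the 27 too, beside the lower keratinocyte marker sum of chemokine-high cells, and the part of keratinocyte RNA in them was not tested.

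Other inflammatory genes already varied below the limit. In dpc16, Cxcl1 stood at 120.1, 426, 953, 1497, 1482 and 2913 CPM along the 6 bins of rising Ccl2, Ccl7 and Tnfaip6 level, of which the first 3 lie below the limit. Nfkbia stood at 545, 1371, 1798, 1987, 1938 and 2751 CPM along the same bins. Has1 stood at 41.4, 125, 231, 346, 314 and 355 CPM. Sparc changed little, between 23478 and 24919 CPM. In NP, Mt2 stood at 1112, 2089.5, 5047, 5676, 8349 and 17658 CPM, and in dpp42 it reached 23989 CPM in the highest bin against 879 CPM in the lowest. The NP and dpp42 bins hold as few as 4 cells.

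**Figure D4:**
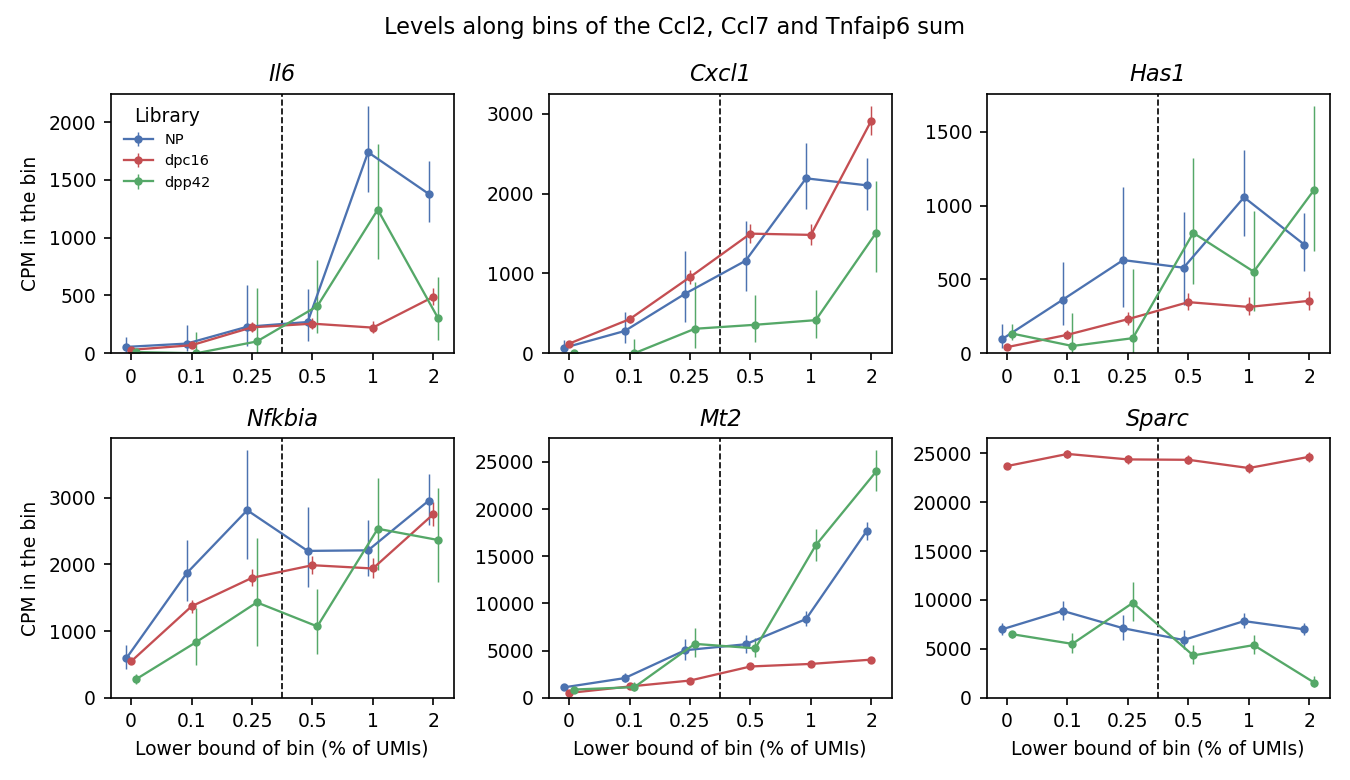
Levels (CPM, with exact Poisson 95% intervals) of Il6, Cxcl1, Has1, Nfkbia, Mt2 and Sparc in fibroblasts binned by their summed Ccl2, Ccl7 and Tnfaip6 level, 1 line per library, with the 0.5% limit dashed. In dpc16 Cxcl1 stands at 120.1 CPM in the lowest bin and 2913 CPM in the highest, and Sparc stays between 23478 and 24919 CPM.

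Between libraries, the chemokine-high cells of dpc16 had more heat shock and immediate early transcripts than those of NP. They had fewer cytokine, NF-kB and metallothionein transcripts. These cells were not matched on the selecting genes, whose summed level had a median of 1.85% (NP), 1.23% (dpc16) and 1.34% of UMIs (dpp42). A level of 2% or more was reached by 26 of 54 NP cells and 71 of 240 dpc16 cells. Whether differences between libraries, here or for dpp42 below, hold among cells of equal level was not tested. Of 5256 measured genes, 342 were called higher (6.51%) and 741 lower (14.1%) in dpc16. The median log2 ratio of all genes was -0.23, and centring on it gave 525 higher and 494 lower. Il6 stood at 319 CPM in dpc16 against 1314 CPM in NP, 4.12 times lower (3.46 to 4.91), with 57.5 against 87.2 CPM in other fibroblasts. Lif, another ligand of the interleukin 6 family, stood at 20.5 against 128 CPM. Of 5 cytokines measured 4 were called lower, Il6, Lif, Csf1 and Tslp, or 3 after centring. Of 19 NF-kB genes 9 were called lower and 1, Gadd45b, higher, and after centring 7 were lower. Tnfaip3 stood at 349 CPM in dpc16 against 1173 CPM in NP. Mt1 stood at 5699 against 22932 CPM and Has1 at 339 against 814 CPM, and both were also called lower in the other fibroblasts of dpc16.

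Heat shock genes went the other way. Of 13 measured, 12 were called higher in dpc16 chemokine-high cells than in those of NP, with a median log2 ratio of 1.62, while 6 of 13 were called higher in other fibroblasts (3.12% of all measured genes there), with a median of 0.46. Hspb1, a small heat shock protein, stood at 1091 CPM in dpc16 against 89.8 CPM in NP, and in other fibroblasts at 1197 against 721 CPM. Cells below the collagen gate had higher levels in dpc16 as well, Hspa1a at 3789 CPM in dpc16 against 936 CPM in NP, Hsp90aa1 at 2333 against 659.9 CPM and Dnajb1 at 1061 against 460.2 CPM. In chemokine-high cells Hspa1a stood at 3760.1 against 929.6 CPM, Hsp90aa1 at 2426 against 615 CPM, and Dnajb1, a co-chaperone of Hsp70, at 753 against 135 CPM. Of 22 immediate early genes 10 were called higher and 1 lower, against 1 higher and 6 lower in other fibroblasts, where 10.8% of all genes were lower. Fos, the AP-1 subunit, stood at 1324 CPM in dpc16 against 231 CPM in NP, and in other fibroblasts at 1454 against 1998 CPM. Set against other fibroblasts of the same library, these lists gave different counts: in NP, 6 of 12 heat shock genes and 9 of 19 immediate early genes were called lower in chemokine-high than in other fibroblasts (8.15% of all measured genes), and in dpc16, 4 of 13 and 6 of 22 were called higher (5.96%), or 6 and 10 after centring. In dpp42, 1 heat shock gene was called higher and 3 lower of 12, and 7 immediate early genes were higher and 2 lower of 18. Of all measured genes there, 8.91% were called higher and 11.8% lower. The higher heat shock gene, Hspe1, had 55.3% of its UMIs in dpp42 chemokine-high cells from 1 cell. Whether the ratios of these lists differ between the libraries was not tested.

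**Figure D5:**
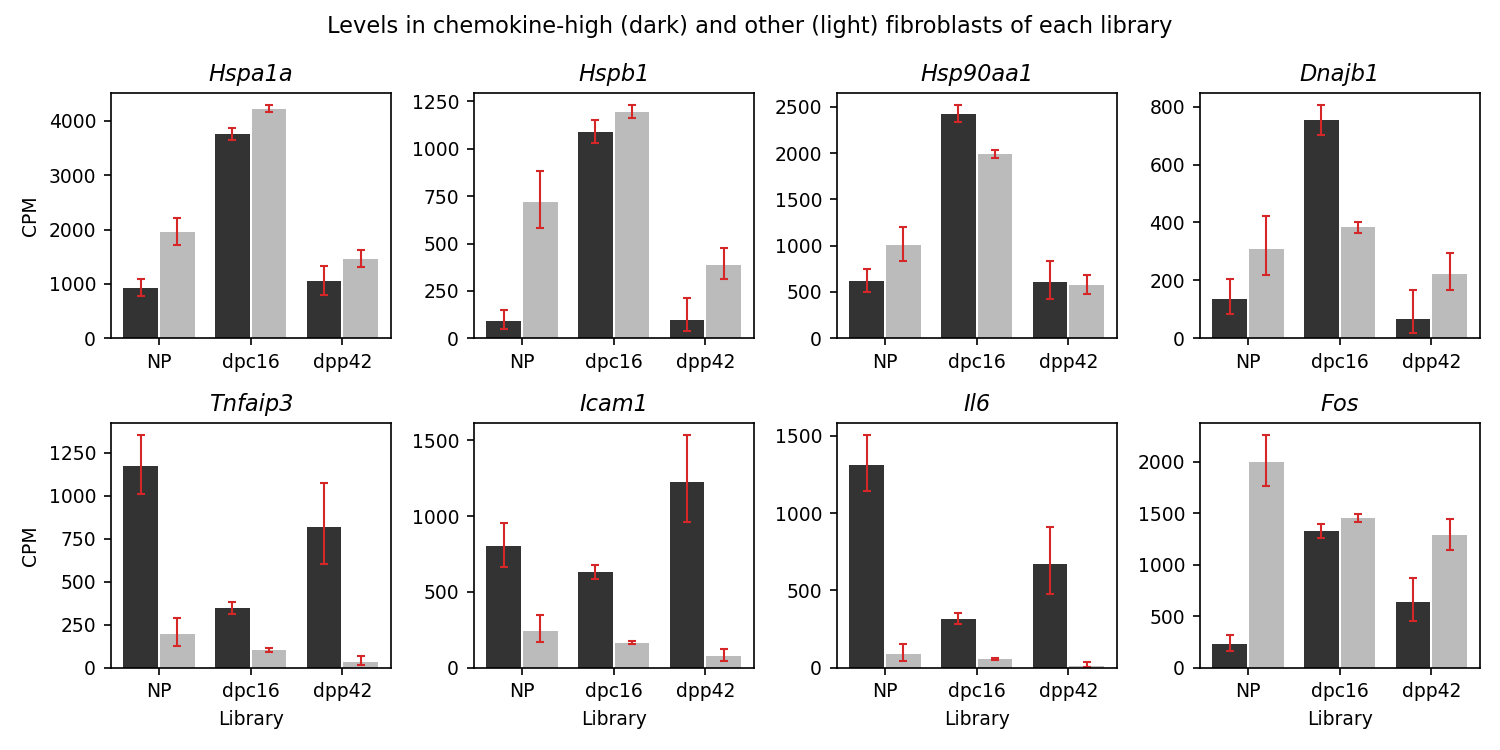
Levels (CPM) of 4 heat shock genes, Tnfaip3, Icam1, Il6 and Fos in chemokine-high fibroblasts (dark, left) and other fibroblasts (light, right) of NP, dpc16 and dpp42, with exact Poisson 95% intervals in red. Fos stands at 231 CPM in chemokine-high cells of NP against 1998 CPM in other fibroblasts, and at 1324 against 1454 CPM in dpc16.

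Several of the largest single differences in dpc16, though not all, were shared with other fibroblasts. Igfbp4 was not, with a log2 ratio of 3.81 in chemokine-high cells and -1.15 in other fibroblasts. Ctla2a, a cysteine protease inhibitor, stood at 7672 CPM in dpc16 chemokine-high cells against 6.41 CPM in NP (1 UMI), and in other fibroblasts at 4941 against 71.3 CPM. Mgp, the matrix Gla protein, stood at 212 CPM against 0 CPM in NP, at least 11-fold higher counted against a floor of 3 UMIs in the NP sum, and in other fibroblasts at 382 against 0 CPM. Wisp2, Pla2g2e and the near-identical kallikreins Klk1b24 and Klk1b27, between which reads could be split, were higher in both populations as well. Klk10 and Cst6 rest on few cells: 99.2% of the Klk10 UMIs and 92.2% of the Cst6 UMIs came from 1 cell, and without the deepest cells the Klk10 log2 ratio was -1.17. Among lower genes, Igfbp5 stood at 206 CPM in dpc16 against 1609 CPM in NP and Pi16, a marker of adventitial fibroblasts, at 105 against 769 CPM, and both were lower in the other fibroblasts too. Scd2, Sema4c, Mme and Ddhd1 were lower in both populations, and Ap1g1 was called in chemokine-high cells alone.

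In dpp42 chemokine-high cells, 81 of 1477 genes measured were called higher (5.48%) and 117 lower (7.92%) than in those of NP. The smaller number of calls than in dpc16 goes with far fewer UMIs, so the sizes of the differences cannot be ranked from it. Ccl19 stood at 1339 CPM in dpp42 against 391 CPM in NP, 3.42 times (2.43 to 4.85), with 160 against 119 CPM in other fibroblasts. Pdpn, podoplanin, stood at 702 against 295 CPM, and C3 at 898 against 237 CPM. Of 8 interferon genes measured, 5 were called higher: Gbp2 (947 against 545 CPM), Gbp5, B2m, H2-K1 and H2-D1, of which B2m, H2-K1 and H2-D1 were higher in other dpp42 fibroblasts too (6.64% of all genes measured there were higher and 5.16% lower). Il6 stood at 670 against 1314 CPM, Cxcl1 at 751 against 1975 CPM and Hmox1 at 65.3 against 526 CPM. Cxcl2 had no UMI in dpp42, against 141 CPM in NP, and 59.1% of its NP UMIs came from 1 cell. Genes of the highest ranks included Krt17, Mfap4, Xdh, CR974586.5, Dapk1, Apoe and C1s1, and 88.9% of the Krt17 UMIs came from 1 cell. Apoe stood at 2695 against 686 CPM, with 6089 against 4563 CPM in cells below the gate. The lowest were Bdh2, Cxcl2, Hmox1, Ostc, Ikbip, Eif4ebp1, Ube2n and Thoc7, which apart from Hmox1 had 0 to 2 UMIs in dpp42.

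Set against dpc16, the dpp42 chemokine-high cells had 453 genes called higher (9.1%) and 203 lower (4.08%) of 4977. The median log2 ratio was 0.26, and centring on it gave 289 higher and 339 lower, so the balance of directions depends on the scaling. In other fibroblasts 18% of measured genes were called higher and 4.74% lower in the same comparison. Of 19 NF-kB genes 8 were called higher and none lower, or 6 and 1 after centring. Icam1 stood at 1225 CPM in dpp42 against 631 CPM in dpc16, and in other fibroblasts at 80.2 against 167 CPM. Lif stood at 212 against 20.5 CPM, with 13 and 23 UMIs. Of 13 heat shock genes none was called higher and 9 lower, Hspb1 at 98.0 against 1091 CPM, and other fibroblasts also had 9 of 13 called lower. Igfbp5, Gpm6a and Dennd4a ranked among the highest and Ctla2a, Cxcl2, Klk1b24 and Klk1 among the lowest.

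The reporter gave little information on these cells. EGFP had 7, 0 and 1 UMIs in chemokine-high cells of NP, dpc16 and dpp42, against 6, 7 and 16 UMIs in other fibroblasts, and whether the counting reference covers the end of the transgene that is captured is not given in the sources used here, so these counts cannot show which cells had recombined.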

How the data were processed

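Each of the 3 libraries was a droplet library of dissociated dermis (trypsin 0.25% for 30 min, filters of 40 and 20 µm, per the labels' protocols). The authors deposited whole-number UMI counts per gene and barcode, made with Cell Ranger 2.2.0 on mm10 (GRCm38), per the submitters' processing notes. The filter of at least 200 genes and at most 10% mitochondrial UMIs left 1289, 3652 and 1081 cells in NP, dpc16 and dpp42. No doublet caller was run, and leaving out cells with keratin or Ptprc transcripts or with very many UMIs was tried instead.

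Counts were summed per library and population and scaled to CPM, with exact Poisson intervals. Ratios carry exact conditional binomial 95% intervals, and shares carry Clopper-Pearson intervals. Genes counted as measured when either sum reached 10 CPM and both together held 20 UMIs, and as called at a ratio of 1.5 with an interval off 1. The log2 ratios add 0.5 UMI. Named genes are the 15 higher and 10 lower genes ranked by their weakest library, and the 8 per direction between stages (4 for dpp42 over dpc16), leaving out genes near the level of free RNA. Some genes that met these rules are not reported here. The members and lists were chosen with earlier results of these data known. The 3 selecting and 5 gate genes were left out of counts. Calls were tested on simulated Poisson counts, which hold no spread between cells, so the test does not cover sums led by single cells. Gene positions and promoters come from the GRCm38 annotation and RefSeq. Python 3.11.15, numpy 2.4.6, scipy 1.17.1, pandas 2.3.3 and matplotlib 3.10.9 were used.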

Additional observations from a re-analysis of the deposited data

Results flagged for a closer look

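The values below are log2 ratios. Each gene was called in opposite directions in 2 populations or 2 libraries, and the difference itself was not tested. Opposite calls were rare: 4 and 3 of 5210 genes in dpc16 over NP, 6 and 2 of 1369 in dpp42 over NP, and 7 and 4 of 4948 in dpp42 over dpc16.

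Inflammatory genes were among them. Icam1 was 0.62 in chemokine-high cells and -1.60 in other fibroblasts for dpp42 over NP, and 0.97 and -1.02 for dpp42 over dpc16. Il6 was 1.09 in chemokine-high cells and -1.89 in other fibroblasts for dpp42 over dpc16, Tnfaip3 was 1.24 and -1.44, and Gfpt2 was 0.94 and -1.24. The Il6 values rest on 3 UMIs in other dpp42 fibroblasts, and 1 cell gave 41.5% of the Il6 UMIs in dpp42 chemokine-high cells. Ptx3 was 1.16 in chemokine-high cells and -1.45 in other fibroblasts for dpc16 over NP, and the 8 Ptx3 UMIs of the NP other fibroblasts came from 1 cell.

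Of the immediate early genes, Fos was 1.46 in chemokine-high cells and -0.63 in other fibroblasts for dpp42 over NP. Fosb was 0.80 and -0.83 for dpc16 over NP, and 0.98 and -0.94 for dpp42 over NP. For dpc16 over NP, Igfbp4 was 3.81 in chemokine-high cells and -1.15 in other fibroblasts, Coch was 3.30 and -0.998, Bdh2 was -0.89 and 1.33, and Eif4ebp1 was -0.84 and 1.47. Coch had no UMI in the NP chemokine-high cells. Krt15 was -0.94 in chemokine-high cells and 0.90 in other fibroblasts for dpp42 over dpc16. Krt17 was 3.22 and -1.08 for dpp42 over NP.

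Chemokine-high over other fibroblasts also turned between libraries. Dnajb1 was -1.18 in NP, 0.98 in dpc16 and -1.61 in dpp42. It had 4 UMIs in dpp42 chemokine-high cells, and 1 cell gave 61.9% of its 21 UMIs in those of NP. Ly6a was 0.60 in NP and -0.87 in dpp42, Mfap4 was -0.64 and 1.23, Igfbp7 was -0.71 and 0.62, and Krt17 was -2.07 and 2.23. Plat was 0.67 in dpc16 and -1.58 in dpp42, where chemokine-high cells had 3 Plat UMIs.

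Outside the fibroblast gate, 34 kept dpc16 cells (1.36%) reached the 0.5% limit for Ccl2, Ccl7 and Tnfaip6. Macrophage markers summed to 15000.3 CPM in these 34 cells, keratinocyte markers to 7873 CPM and Langerhans and dendritic markers to 7197 CPM. Of the 34 cells, 21 had macrophage UMIs, and their types were not tested. In NP 3 such cells and in dpp42 1 such cell reached the limit, with macrophage markers at 0 CPM.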

How the results depend on the processing

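No paired analysis was possible because each group is 1 library, and for the same reason no replicate could be left out. Named genes were ranked by large ratios in these same data, so most were likely to keep their sign, and a kept sign says nothing of size. Of 1495 alternative values for named genes, 1494 kept their sign. The exception was Klk10, dpc16 over NP, with a log2 ratio of -1.17 without cells above the 95th percentile of UMIs. With the limit at 0.25% of UMIs the dpc16 share was 29.8% and its ratio to NP 0.501. With the limit at 1% they were 12.5% and 0.282, and 292 genes were higher in dpp42 over dpc16. With at most 5% mitochondrial UMIs, 17 genes were lower in chemokine-high cells in all 3 libraries. Centring on the median gave 15 such genes, 525 genes higher in dpc16 over NP, and 289 higher and 339 lower in dpp42 over dpc16. With no filter on low values, 192 genes were higher in dpp42 over NP. Over NP and dpc16 only, an alternative chosen after seeing the data, 110 genes were higher and 47 lower in chemokine-high cells. The cause of these shifts was not tested. The 61229 UMIs of the dpp42 chemokine-high cells limit what can be called there.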

Other observations

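Some genes outside the ranked set were also higher in chemokine-high cells of all 3 libraries, and were chosen after their values were seen. Hspa5, the main chaperone of the endoplasmic reticulum, stood at 1494, 948 and 1519 CPM in chemokine-high cells of NP, dpc16 and dpp42, against 872, 394 and 503 CPM in other fibroblasts. Cdkn1a, which encodes the cell-cycle inhibitor p21, stood at 865, 514 and 768 CPM, against 349, 294 and 214 CPM. Klf9, a transcription factor, stood at 763, 554 and 669.6 CPM, against 293, 329 and 218 CPM. Dkk2, a secreted Wnt regulator, was lower in each library, at 186, 322 and 294 CPM against 785, 529 and 797 CPM.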
